A study of Mus musculus with 3 samples.

Results

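Skeletal muscle sarcomere and myogenic genes were examined in the embryonic mouse ureter, the muscular duct between kidney and bladder. The set holds 44 genes chosen by name: regulators of the myogenic programme, the proteins of the contractile unit (the sarcomere), the muscle acetylcholine receptor and genes of muscle membrane, calcium storage and energy supply. All 44 were measured, among 18194 genes with a probe set of their own. The 3 samples, called replicates 3, 8 and 9, belong to a single group: wild-type ureters of the FVB/N strain, collected at embryonic day 15, which is Theiler stage 23. Sex was unknown, the dissection ran from renal pelvis to bladder entry, and samples were not pooled. RNA was amplified in 2 rounds and read on 1-colour Affymetrix arrays of the mouse genome. No transgene, treatment or second group enters the comparison, so each gene was set against background and the samples against each other.

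Skeletal muscle forms when progenitor cells switch on the basic helix-loop-helix factors MyoD, Myf5, myogenin and Mrf4, which bind E-box sequences together with MEF2 factors and turn on sarcomere genes. Sarcomeres slide thick filaments of myosin along thin filaments of actin, and troponin and tropomyosin make that sliding depend on calcium. Most sarcomere proteins come in isoforms from separate genes, with embryonic, slow and fast versions that replace each other as fibres mature. The ureter wall itself contains smooth muscle, which uses other myosin and actin genes and no troponin.

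A gene was called above background when its signal on each of the 3 arrays exceeded the 95th percentile of 53 reference genes typical of organs not dissected here, such as retina, testis and lens. That level was 323, 379 and 406 in replicates 3, 8 and 9. By construction few reference genes can pass it on every array, and 1 of the 53 did. Of the 44 muscle genes, 31 (70.5%) were above background, against 55.8% of all 18194 named genes. In 14 of the 44 (31.8%) the signal was at least 10 times background on every array, against 19.0% of all genes. Of the 13 genes not above background, 10 were below background on every array, 2 were above it on 1 array (Tcap and Smyd1) and 1 on 2 arrays (Ckm). Probe sets differ in brightness for reasons other than transcript abundance, so levels of different genes were not compared as abundances. In whole tissue a lower level can come from fewer muscle cells or from less RNA per cell, and these cannot be told apart. A gene not above background may still have been transcribed.

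**Figure D1:**
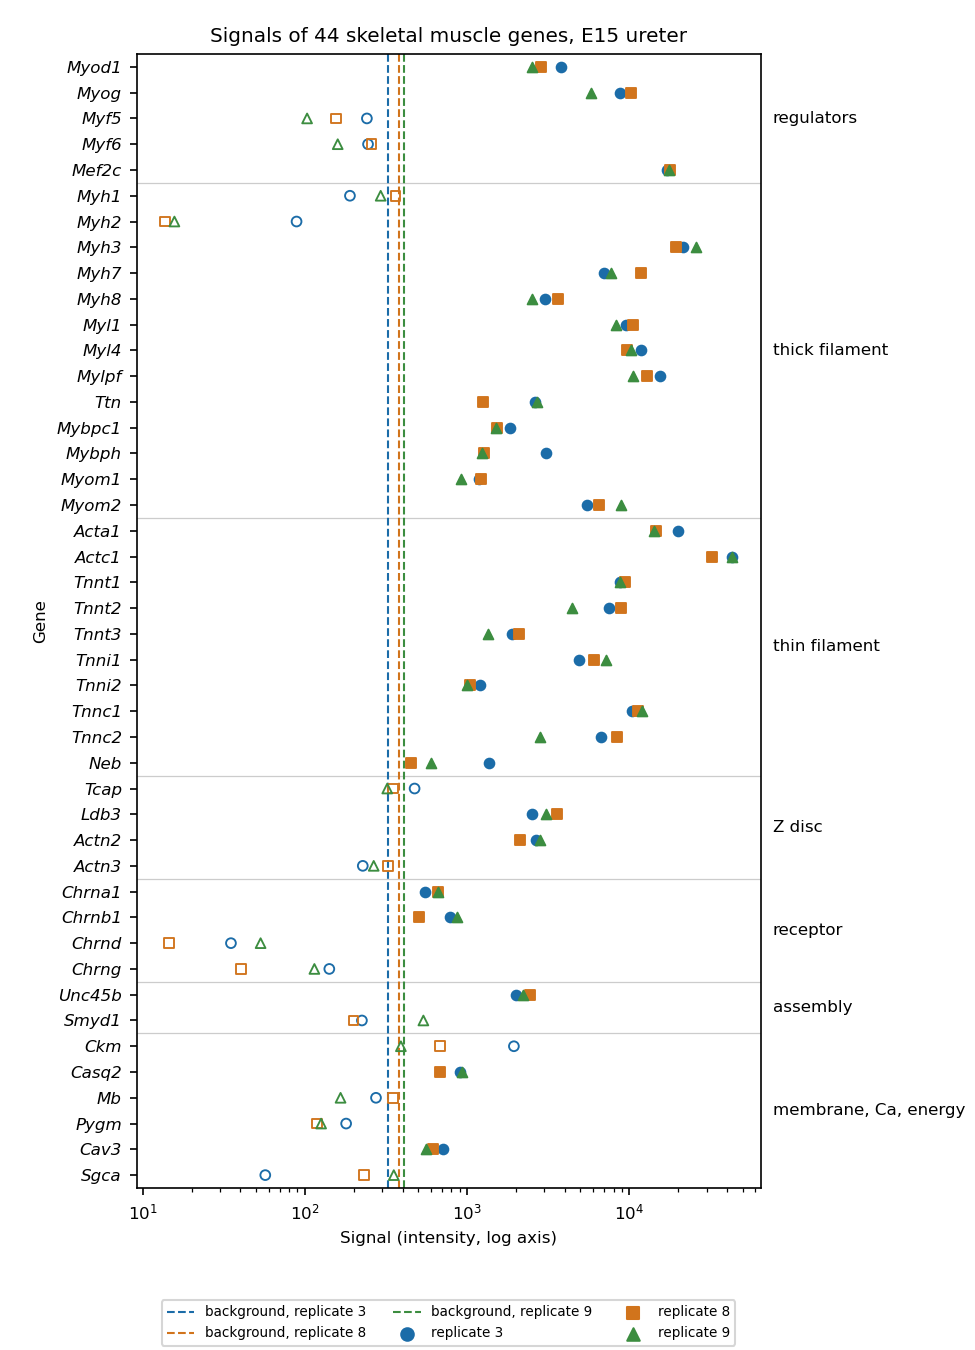
Signals (intensity, log axis) of the 44 genes by role, with 1 point per sample and dashed lines at each array's background. Filled points mark the 31 genes above background on all 3 arrays. Every thin filament gene is filled, whereas Myf5, Myf6, Myh1, Myh2, Chrnd and Chrng lie left of the lines in every sample.

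Among the regulators, 3 of 5 (60%, near the 55.8% of all genes) were above background: the myogenic factor genes Myod1 and Myog and the cofactor gene Mef2c. Myog, which encodes myogenin, the factor of differentiating myocytes, had signals of 8767, 10275 and 5777 in replicates 3, 8 and 9 (mean 8273 ± 2289, SD, n = 3, as for every mean below). Myod1, the gene of the lineage-determining factor MyoD, had signals of 3816, 2839 and 2515. All 3 samples stood at least 6.19 times above background for Myod1 and at least 14.2 times for Myog. Mef2c had signals of 17021, 17836 and 17607, the narrowest range of the 44 genes (0.07 on the log2 scale). MEF2C also acts in vessel, heart and neural cells, so its signal need not come from skeletal muscle. Myf5, the earliest of the factors in the embryo, gave 241, 155 and 103. Myf6, the Mrf4 gene of late myofibres, gave 245, 257 and 159. Both lay below background in every sample, and they are neighbours on chromosome 10 with no coding gene between them.

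Progenitor genes upstream of these factors were measured for 9 of 11 listed, and 7 were above background, against 55.8% of all genes. Eya1, Msc, Tcf21 and Met had mean signals of 4920 ± 1933, 3521 ± 554, 2691 ± 807 and 2260 ± 498. Eya1 also marks nephron progenitors and Tcf21 renal mesenchyme, so these signals need not come from muscle. Pax7, the gene of the factor that maintains muscle stem cells, gave 1352, 1271 and 1228, and Lbx1, needed by migrating limb precursors, 684, 550 and 620. These 2 were chosen after their values were seen. Pax3 (289, 153 and 253) was below background in every sample, and Pitx3 exceeded it on 1 array. When all probe sets of a gene were averaged, 3 of the 9 were above background, against 44.8% of all genes in that setting.

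E-boxes were searched for in the 250 bases before the annotated start of each gene (RefSeq, build GRCm38.p6), where 35 of the 44 genes matched. The E-box CANNTG, on either strand, was in 28 of these 35 genes and in 79.1% of their 43 windows, against 66.2% of all 32851 windows. Its form CAGCTG, included in that count, was in 13 genes and 34.9% of windows, against 13.0% of all. The CArG box bound by serum response factor was in 4 genes (11.6% of windows against 1.47%): Acta1, Actc1, Myom1 and Ldb3. All 4 were above background, as were 26 of the 35 genes with a window. The MEF2 site, spelled C or T, TA, 4 letters A or T, TA and A or G, was in 4 genes (9.30% against 2.92%). TATAAA was in 10 (25.6% against 12.4%). CAGCTG was in 9 of the 26 genes above background and in 4 of the 9 not above it. Windows of the same gene can overlap, so 1 match may count in more than 1 window. This was so for the CArG box of Ldb3 and for CAGCTG in Tnni1 and Mb. A match describes letters in this window only and is not a binding site.

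Capitals mark the motif matches in the windows of Myog, the regulator, and of Acta1, as examples of where such letters lie before the annotated start. The Acta1 window holds 4 of the 5 motifs searched, with its CAGCTG also counted as CANNTG. That of Myog is chr1:134289754-134290003 (plus strand) and that of Acta1 chr8:123894776-123895025 (minus strand).
Myog: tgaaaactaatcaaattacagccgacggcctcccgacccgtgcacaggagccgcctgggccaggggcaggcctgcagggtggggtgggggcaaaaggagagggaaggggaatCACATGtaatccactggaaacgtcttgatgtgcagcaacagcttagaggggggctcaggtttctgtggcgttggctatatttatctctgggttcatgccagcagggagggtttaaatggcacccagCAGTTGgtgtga
Acta1: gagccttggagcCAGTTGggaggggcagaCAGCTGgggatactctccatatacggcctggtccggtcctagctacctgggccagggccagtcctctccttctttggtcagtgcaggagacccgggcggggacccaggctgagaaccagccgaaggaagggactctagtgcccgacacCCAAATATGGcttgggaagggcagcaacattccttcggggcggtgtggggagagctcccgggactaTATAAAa
In Myog the E-boxes begin 138 and 12 bases before the start. Its window has no exact MEF2 match, although ctatatttat differs from that spelling only at its last base. In Acta1 they begin at 238 and 221, the CArG box at 73 and TATAAA at 7 bases before it.

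Of the 13 genes of the thick filament and M band, 11 (84.6%, against 55.8% of all genes) were above background. Myh3, the embryonic myosin heavy chain gene, had signals of 21309, 19505 and 25956, at least 51.4 times background in each sample. Myh8, the perinatal heavy chain gene, had signals of 3013, 3642 and 2501. Myh7, the slow heavy chain gene that is also made in the heart, had signals of 6946, 11797 and 7709. These 3 genes were above background in all samples by a wide margin. The adult fast genes were not: Myh1 (type 2X) gave 189.6, 362 and 293, and Myh2 (type 2A) gave 88.9, 13.7 and 15.7. In replicate 8 that Myh1 probe set came to 0.96 times background, and another Myh1 probe set (189.9, 389.5 and 223) exceeded the background of 379 in that sample only. Myosin heavy chain genes are near-identical over long stretches, so a probe set may also detect a related chain. A pair of probe sets that name both Myh7 and Myh6 was not used, because only probe sets with 1 gene symbol were kept.

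Myh3, Myh2, Myh1 and Myh8 lie in that order in a chain on chromosome 11, in which only Myh4 separates Myh1 from Myh8. Myh4, the type 2B gene, gave 8.24, 47.2 and 43.8. Of these 5 genes, those at both ends were above background and the 3 between them below it. The windows of Myh3, Myh8 and Myh1 are shown because these related neighbours had different calls. They lie at chr11:67078050-67078299 (plus strand), chr11:67276874-67277123 (plus strand) and chr11:67199852-67200101 (plus strand), with the same motifs in capitals.
Myh3: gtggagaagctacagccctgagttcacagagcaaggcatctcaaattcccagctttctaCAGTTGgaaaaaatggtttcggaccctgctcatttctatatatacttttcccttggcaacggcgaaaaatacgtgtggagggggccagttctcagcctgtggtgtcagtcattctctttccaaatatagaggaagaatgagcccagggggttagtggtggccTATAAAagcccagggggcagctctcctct
Myh8: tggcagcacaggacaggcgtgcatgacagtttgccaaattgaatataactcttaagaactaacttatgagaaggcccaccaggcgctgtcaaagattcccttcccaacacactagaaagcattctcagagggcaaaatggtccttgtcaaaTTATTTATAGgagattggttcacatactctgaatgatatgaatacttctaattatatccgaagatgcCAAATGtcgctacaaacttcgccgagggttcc
Myh1: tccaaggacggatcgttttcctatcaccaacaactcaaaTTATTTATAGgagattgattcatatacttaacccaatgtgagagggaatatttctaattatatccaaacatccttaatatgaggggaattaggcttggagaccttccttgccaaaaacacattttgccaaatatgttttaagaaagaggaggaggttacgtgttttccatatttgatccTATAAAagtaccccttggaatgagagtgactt
Myh3 has TATAAA 29 bases before the start and Myh1 32 bases before it. The longest identical run between Myh1 and Myh8 was tcaaattatttataggagattg, 22 bases that include their MEF2 site and a reverse-strand TATAAA inside it. It begins 216 bases before the start in Myh1 and 104 bases before it in Myh8. Between Myh3 and Myh8 the longest run was 8 bases and between Myh3 and Myh1 it was 10. Myh2 and Myh1, both below background, shared aatatttctaattatatccaa (21 bases). The MEF2 letters thus stood in the window of a gene above background and of one below it.

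The light chain genes were all above background. Myl1, the fast essential light chain gene, had signals of 9601, 10558 and 8275. Mylpf, the fast regulatory light chain gene, had 15546, 12804 and 10508. Myl4, the embryonic and atrial light chain gene, had 11834, 9697 and 10272. Across the 3 genes and 3 samples the lowest ratio to background was 20.4, in Myl1. Among the accessory proteins, Mybpc1, the slow myosin-binding protein C gene, had signals of 1830.4, 1539 and 1514. Mybph, the gene of the related protein H, had 3057, 1279.6 and 1239.6, so that replicate 3 stood at 2.47 times the lowest sample. Ttn, the gene of the giant spring protein titin, had 2611, 1254 and 2706, with replicate 8 the low one. Myom1 and Myom2, the M-band linker genes, had mean signals of 1105 ± 165 and 6931 ± 1744. Myom2 was above background only through probe sets ending in _x_at, a suffix that marks probes shared with other sequences.

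All 10 thin filament genes were above background, against 55.8% of all genes. Actc1, the cardiac actin gene that is also the main striated actin of embryonic muscle, had signals of 42843, 32292 and 43085. Acta1, the skeletal actin gene, had 19848, 14630.4 and 14282. Both passed background at least 35.1 times in each sample. Striated and smooth muscle actins are close in sequence, and Acta2, the smooth muscle gene, had signals of 32410.5, 27441 and 35288. Its part in the signals of Acta1 and Actc1 was not tested. Neb, whose product nebulin runs along the thin filament, gave 1359, 449.6 and 603. Replicate 8 was 1.19 times background, the smallest margin among the 31 of the 44 genes counted as above it.

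Troponin has 3 subunits, and each was represented by a slow and a fast gene above background. For troponin T, which anchors the complex on tropomyosin, the slow gene Tnnt1 had signals of 8711, 9402 and 8772 and the fast gene Tnnt3 1881, 2085 and 1342. Tnnt2, the cardiac and embryonic form, had 7507, 8836 and 4420.1. Replicate 9 was the lowest for Tnnt2 and Tnnt3, whereas Tnnt1 varied by 0.11 on the log2 scale. For the inhibitory subunit, the slow gene Tnni1 had 4918, 6058 and 7146 and the fast gene Tnni2 1197, 1042 and 995. For the calcium-binding subunit, the slow and cardiac gene Tnnc1 had 10448, 11287 and 11970.3, and the fast gene Tnnc2 6687, 8376 and 2801. Within each pair replicate 9 held the highest slow signal of Tnni1 and Tnnc1 and the lowest fast signal of Tnni2 and Tnnc2. Tnni1 and Tnnt2 are separated by 1 coding gene on chromosome 1, as are Tnni2 and Tnnt3 on chromosome 7, and in both pairs both genes were above background.

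Of 4 Z-disc genes, whose products anchor thin filaments, 2 (50%, near the 55.8% of all genes) were above background. Actn2, the alpha-actinin gene of all striated fibres, had signals of 2659.6, 2109 and 2802. Ldb3, which encodes a PDZ-LIM protein binding alpha-actinin, had 2501, 3571 and 3051. Actn3, the alpha-actinin gene of fast fibres, gave 228, 327 and 266, below background in every sample. Tcap, the gene of the titin cap telethonin, gave 475, 351 and 322 and exceeded background in replicate 3 only.

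The fetal muscle acetylcholine receptor is built from alpha, beta, delta and gamma subunits. Chrna1, the alpha gene, had signals of 550.2, 659 and 663, and Chrnb1, the beta gene, 787, 503 and 864. Both were above background in all samples, by at least 1.63 and 1.33 times. The delta gene Chrnd gave 35.0, 14.6 and 53.3 and the gamma gene Chrng 141, 40.6 and 114, all below background. Chrnd and Chrng are adjacent on chromosome 1. The adult epsilon gene Chrne gave 16.7, 35.3 and 12.1. The windows of Chrna1, chr2:73580339-73580588 (minus strand), and Chrng, chr1:87205561-87205810 (plus strand), are given because the genes had different calls.
Chrna1: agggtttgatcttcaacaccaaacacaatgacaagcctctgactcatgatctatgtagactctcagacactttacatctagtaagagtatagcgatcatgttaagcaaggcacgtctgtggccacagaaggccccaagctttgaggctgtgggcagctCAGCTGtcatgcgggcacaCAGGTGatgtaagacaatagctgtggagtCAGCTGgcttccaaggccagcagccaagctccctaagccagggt
Chrng: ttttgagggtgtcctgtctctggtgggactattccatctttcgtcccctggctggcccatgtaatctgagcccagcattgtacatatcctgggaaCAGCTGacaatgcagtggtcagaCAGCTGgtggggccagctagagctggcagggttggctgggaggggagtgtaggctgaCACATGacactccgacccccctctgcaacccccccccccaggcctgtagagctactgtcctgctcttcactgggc
Each holds CAGCTG at 2 places, beginning 92 and 44 bases before the start in Chrna1 and 155 and 132 before it in Chrng.

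Of the assembly factors, Unc45b, the gene of a myosin chaperone, was above background with 2014, 2427 and 2218. Smyd1, which encodes a muscle methyltransferase that also binds myosin, gave 225, 199.5 and 538, above background in replicate 9 only. Of 6 genes of membrane, calcium storage and energy supply, 2 (33.3%, against 55.8% of all genes) were above background. Casq2, the calsequestrin gene of slow and cardiac fibres, had 909.9, 683 and 929.7, from a probe set ending in _s_at that may also detect other transcripts. Cav3, the muscle caveolin gene, had 706.5, 615 and 559. Ckm, the muscle creatine kinase gene, gave 1944, 683 and 391, and its replicate 9 value was 0.96 times background. Without replicate 9 Ckm was above background, which made 32 of 44. Replicate 3 was 4.97 times replicate 9 for this gene. The myoglobin gene Mb (274, 349 and 166), the glycogen phosphorylase gene Pygm (179.6, 119 and 126) and the alpha-sarcoglycan gene Sgca (57.0, 233 and 353) were below background in every sample.

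By isoform class, 5 of 6 embryonic, 6 of 6 slow and 5 of 8 fast genes were above background, against 55.8% of all genes. The embryonic genes were Myh3, Myh8, Myl4, Actc1 and Tnnt2, with the receptor subunit Chrng the exception. The slow genes were Myh7, Tnnt1, Tnni1, Tnnc1, Mybpc1 and Casq2. The fast genes above background were Myl1, Mylpf, Tnnt3, Tnni2 and Tnnc2. The fast genes not above it were the heavy chains Myh1 and Myh2 and the alpha-actinin Actn3. The fast light chain and troponin genes were thus above background in samples where Myh1 and Myh2 did not reach that call.

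**Figure D2:**
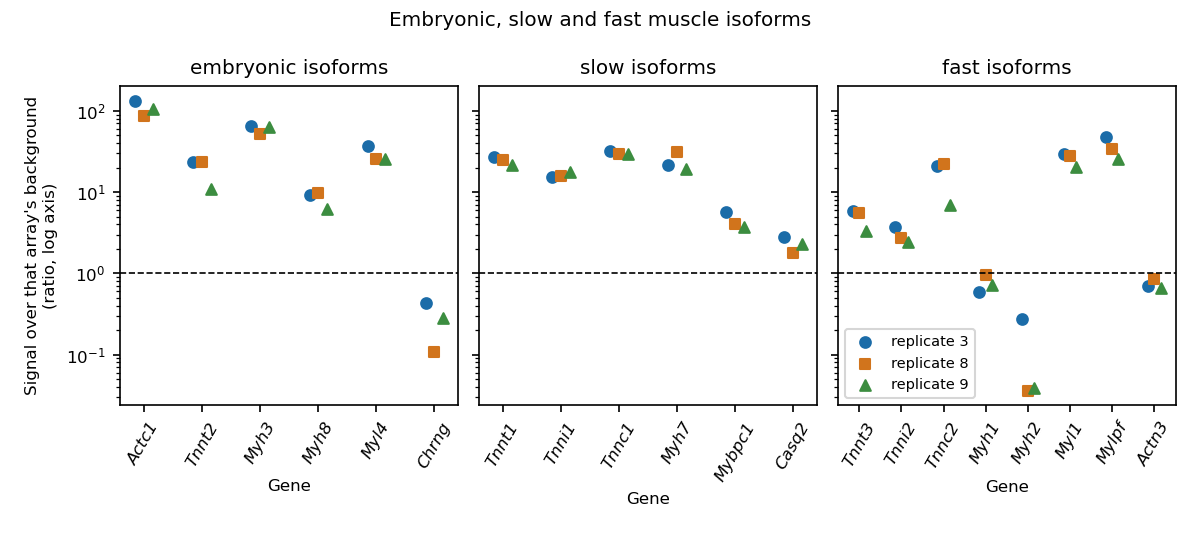
Ratio of signal to that array's background (log axis) for 6 embryonic, 6 slow and 8 fast genes, with 1 point per sample and a dashed line at background. All slow genes lie above the line, and among the fast genes Myh1, Myh2 and Actn3 lie below it in every sample.

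Between samples, the median SD of the 31 genes above background was 0.26 on the log2 scale, against 0.28 for all 10152 genes above background. A range of at least 1 (log2) was found in 4 of the 31, against 14.7% of all genes: Neb (1.59), Tnnc2 (1.58), Mybph (1.30) and Ttn (1.11). Each deviation was taken from the gene's 3-sample mean and centred on the array. The median deviation of the 31 genes was 0.12, -0.02 and -0.06 in replicates 3, 8 and 9. The interquartile range of all genes was -0.18 to 0.17, -0.19 to 0.18 and -0.20 to 0.21, so each of these medians lay inside it. Replicate 3 gave the highest signal of 9 of the 31 genes (33.1% of all genes), replicate 8 of 12 (35.7%) and replicate 9 of 10 (31.2%). The lowest signal fell in replicate 3 for 9 of the 31 (30.9% of all genes), in replicate 8 for 8 (29.6%) and in replicate 9 for 14 (39.5%).

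By class, all 5 fast genes were lowest in replicate 9, as were 39.5% of all genes, and their median deviation there was -0.25. Of the 6 slow genes 1 was lowest in replicate 9, and their median deviation was 0.07. For the 5 embryonic genes it was 0.13, -0.15 and 0.00 in replicates 3, 8 and 9. These are descriptions of 5 or 6 genes in 3 samples and were not tested. Of 28 other muscle genes above background, 11 were lowest in replicate 9 (39.5% of all genes) and 10 highest (31.2%). Their median deviation there was 0.01. Those lowest included the slow and ventricular light chain genes Myl2 (792 against 5775 and 6825) and Myl3 (1979 against 2879 and 5769). Srl, Flnc, Synpo2l and Tpm3 were highest in that sample. Some other lists were lower in replicate 9 and some higher. The median deviation there was -0.29 for 9 smooth muscle genes above background (5 lowest in that sample). It was -0.26 for 5 heart genes and -0.22 for 7 progenitor genes (5 lowest). The heart genes include the same Myl2 and Myl3, and the rest stood at -0.26 (Tbx20), 0.02 (Sln) and 0.08 (Myh6). For 3 tendon and 4 nerve genes it was 0.69 and 0.54. The low values of replicate 9 were therefore not limited to fast isoforms.

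**Figure D3:**
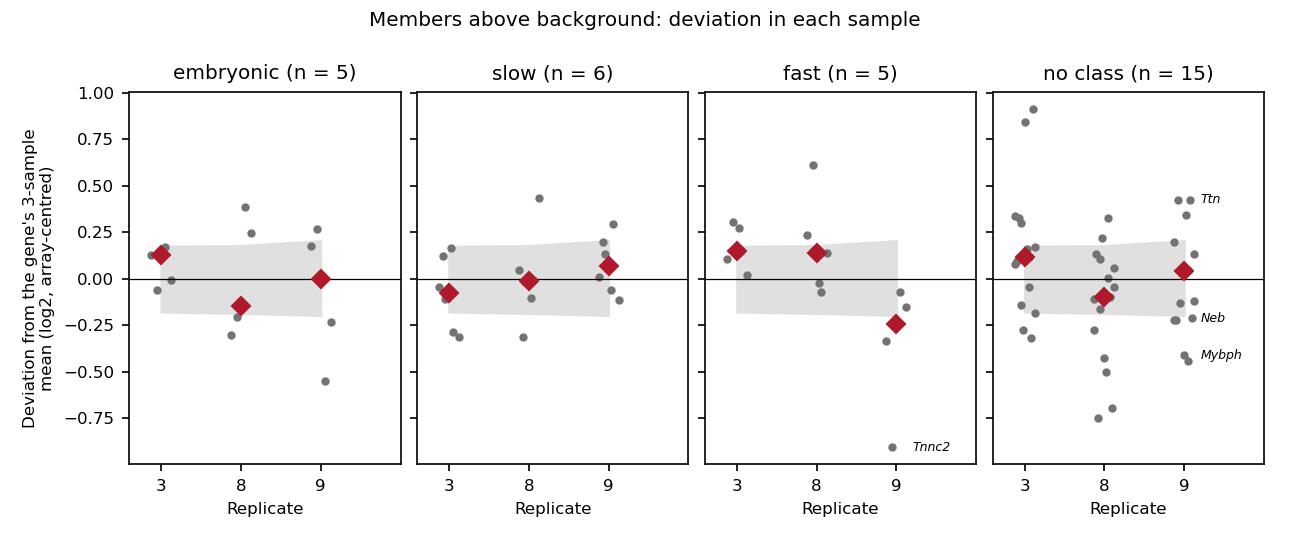
Deviation (log2) of each of the 31 genes above background from its 3-sample mean, by replicate and isoform class. Grey points are genes, red diamonds class medians and the grey band the interquartile range of all genes above background; names mark the 4 genes with a range of at least 1. The fast genes have a median of -0.25 in replicate 9.

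Other muscle genes from a list of 66 were measured for 62, and 28 of them (45.2%, against 55.8% of all genes) were above background. Of 12 genes of calcium release, 2 (16.7%) were: the sarcoplasmic reticulum gene Srl (7460, 8596 and 10372) and the junctophilin gene Jph2 (1418, 1299 and 1092). The release channel gene Ryr1 (371, 249 and 272), the calcium channel gene Cacna1s (126, 19.4 and 148) and the calcium pump gene Atp2a1 (526, 332 and 502) were not, nor were Cacnb1, Cacng1, Casq1, Stac3, Jph1, Trdn and Jsrp1. Of these 10 genes 4 were below background on every array. Dok7, an activator of the receptor kinase MuSK, was the 1 of 5 synapse genes above background (1835, 1021 and 1499), and Musk itself was not (219, 198 and 381). Rapsn, which clusters the receptor, gave 587, 571 and 332, above background in replicates 3 and 8. Of 5 fusion and adhesion genes 2 were, Mymx, the gene of the fusion peptide myomixer (2649.9, 3179 and 3001), and Jam2. Mymk, the gene of the fusion protein myomaker, was below background in every sample (151, 50.4 and 118), and Cdh15, the M-cadherin gene, exceeded it on 2 arrays (316, 399.6 and 476).

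Among 14 measured Z-disc and cytoskeletal genes 8 were above background (57.1%, against 55.8% of all genes). Synpo2l had a mean signal of 12589 ± 1550.3, the filamin gene Flnc 6014 ± 2527, Myoz2, a calcineurin-binding Z-disc gene, 5876 ± 1750.4 and Csrp3, the muscle LIM protein gene, 5116 ± 1493. Of 11 other sarcomere genes 6 (54.5%, near the 55.8% of all genes) were above background. They included the tropomyosin genes Tpm3, Tpm2 and Tpm1 (means 30015, 14940 and 5952), which other cells also express. In the dystrophin complex 4 of 5 genes (80%) and in energy supply 5 of 10 (50%) were above background, against 55.8% of all genes.

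Markers of other cells were read beside these. Of 12 smooth muscle genes 9 (75%, against 55.8% of all genes) were above background, with summed signals of 71722, 74450 and 60106 in replicates 3, 8 and 9, and Mylk, the myosin light chain kinase gene, gave 21041, 27704 and 12746. The smooth muscle genes not above it were Cnn1 (207, 486 and 156), Myocd (209, 1001 and 776) and Lmod1 (348, 179 and 133), each above background on 1 or 2 arrays. Several sarcomere genes of the set are shared with the heart. Of 14 heart markers 5 (35.7%, against 55.8% of all genes) were above background: Myl2, Myl3, Tbx20, Sln and, named after its values were seen, Myh6 (841, 479 and 661). With probe sets averaged, 2 of the 14 were, against 44.8% of all genes. Myl2, Myl3 and Sln are also transcribed in skeletal muscle. The heart list was mixed. Nppa (133, 52.1 and 24.0), Nkx2-5 (241, 159 and 167) and Myl7 (271, 253 and 245) were below background in every sample, as were Nppb, Hand1 and Gata4. Mybpc3, the cardiac myosin-binding protein C gene, gave 475, 774 and 393, above background in replicates 3 and 8. Tnni3, the cardiac troponin I gene (149, 408 and 48.9), exceeded it in replicate 8 only and the release channel gene Ryr2 (317, 305 and 519) in replicate 9 only. The summed signal of the heart list was 14135, 17686 and 7395. Its brightest genes by mean were Myl2 (5775, 6825 and 792) and Myl3 (2879, 5769 and 1979), both lowest in replicate 9. The sum therefore leans on genes that skeletal muscle also transcribes. The part of the heart list in the results was not tested.

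Tendon genes, which mark tissue attached to skeletal muscle, were above background for 3 of 6 (Fmod, Mkx and Thbs4), which is 50% against 55.8% of all genes. Scx (326, 434 and 389) and Tnmd (756, 378 and 483) exceeded background on 2 arrays each, and Kera (275, 223 and 261) was below it in every sample. With the 90th percentile as background, or with 2 arrays required, 5 of the 6 were above background, against 60.4% and 60.1% of all genes. Fmod, Mkx and Thbs4 had median deviations of 0.09, -0.68 and 0.69 in replicates 3, 8 and 9, and their part in the results was not tested. Cartilage and bone genes were for 1 of 8 (Col9a1). Hepatocyte genes were for 8 of 8, and all 8 were highest in replicate 3 and lowest in replicate 8, with median deviations of 0.67 and -0.58. Of the 31 muscle genes, 9 were highest in replicate 3 (33.1% of all genes) and 8 lowest in replicate 8 (29.6% of all genes). The 5 embryonic genes among them had medians of 0.13 in replicate 3 and -0.15 in replicate 8. Gene by gene, only Myl4 (1 of the 5) peaked in replicate 3. Tnnt2 and Myh8 peaked in replicate 8, and Actc1 and Myh3 in replicate 9. The minimum of 3 of the 5 fell in replicate 8. The part of hepatocyte RNA in the results was not tested. Nerve genes were above background for 4 of 8 (50%): Isl1 (2627, 4017 and 9128), Stmn2 (1425, 5676 and 6761), Erbb3 (4116, 3251 and 4386) and Elavl4 (1501, 1827 and 1543). Their median deviations were -0.46, -0.03 and 0.54 in replicates 3, 8 and 9, so replicate 9 was higher here. Isl1 is transcribed in motor neurons and also in other cells. The motor neuron genes Mnx1 (24.7, 15.3 and 18.5) and Chat (highest signal 102) were below background in every sample, and Tubb3 and Sox10 exceeded it on 2 arrays and 1 array. The part of nerve in the results was not tested.

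**Figure D4:**
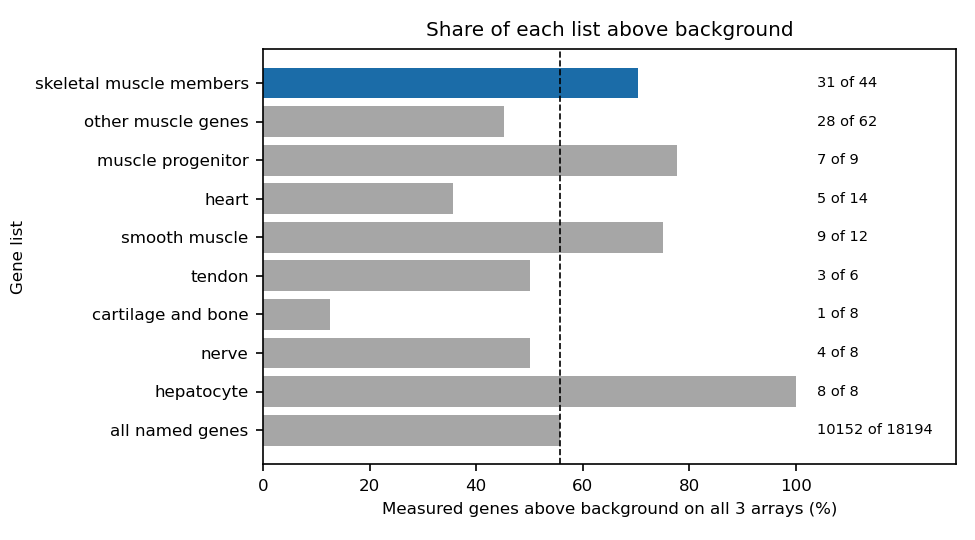
Share of measured genes above background on all 3 arrays (%), for the 44 muscle genes (blue), other muscle genes, marker lists of other cells and all named genes, with counts at the right and a dashed line at the share of all genes. The 44 genes lie at 70.5%, the heart list at 35.7% and all genes at 55.8%.

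The choice of probe set bears on these calls. Of the 44 genes 30 had 1 probe set and 14 had several, 77 in all, of which 39 were above background (50.6%, against 44.2% of all probe sets with 1 gene symbol). Each of the 9 called genes with more than 1 probe set also had a dim one. For Myod1 the second probe set gave 80.0, 80.3 and 77.3. For Tnnt2, a second gave 6333, 7213 and 3296 and was likewise lowest in replicate 9. For Tnni2, of the 2 probe sets not ending in _x_at, 1 gave 987, 889.7 and 542, a deeper low in replicate 9, and the other was below background (50.2, 9.04 and 8.88). Mef2c had 4 of 5 probe sets above background, and they did not vary alike: that at 2618, 2173 and 1244 was lowest in replicate 9, and that at 937, 1097 and 2211 was highest there. The near-constant level of Mef2c is therefore that of its brightest probe set. In Myom2 a probe set not above background (650, 438 and 256) was lowest in replicate 9, where the others were highest. In Ldb3 a probe set not above background (648, 280 and 152) was lowest in replicate 9, whereas the others were lowest in replicate 3. In Ttn the other probe set above background (1736, 874 and 956) was highest in replicate 3 and the one used in replicate 9, though both were lowest in replicate 8. Probe sets of Chrng (3), Smyd1 (6) and Myh1 (3) were all not above background.

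**Figure D5:**
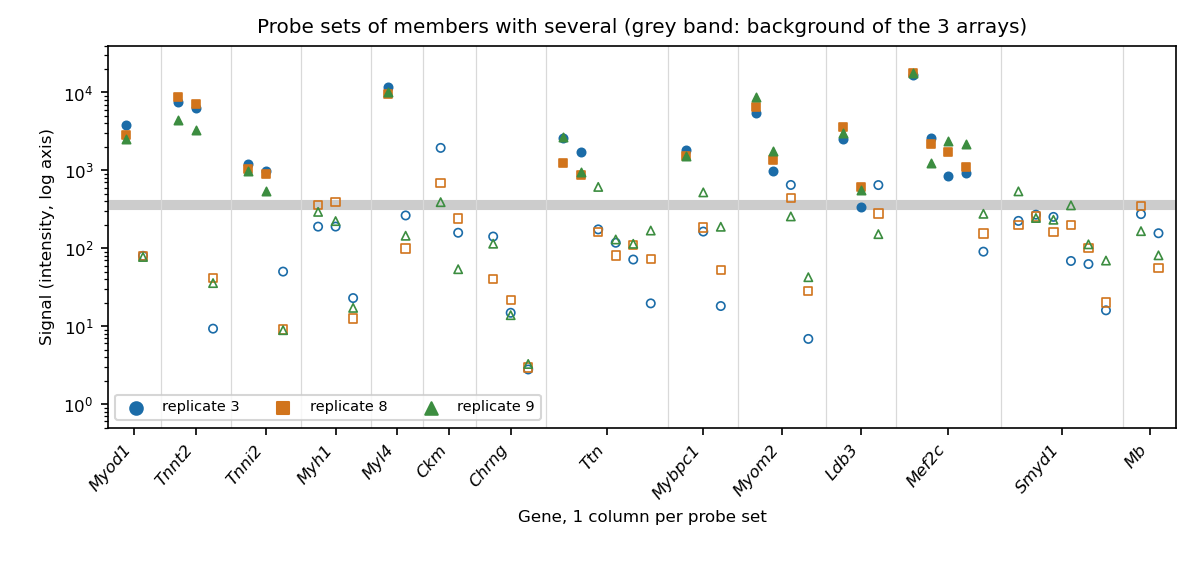
Signals (intensity, log axis) of every probe set of the 14 genes with several, with 1 column per probe set, 1 point per sample and filled points where the probe set was above background on all 3 arrays. The grey band spans the background of the 3 arrays, from 323 to 406. Bright and dim probe sets of the same gene stand side by side in Myod1, Myl4, Ttn and Mybpc1.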

How the data were processed

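RNA of 3 ureter samples was measured on 1-colour arrays. The deposited values are linear intensities, 1 signal for each of 45101 probe sets, made with GCOS per the submitters' processing notes. Its version, settings and detection calls were not given in the sources used here. The 2% trimmed mean was 1500.01 on every array while medians differed (234, 198 and 273), so the authors' arrays had been scaled but not quantile normalized. Nothing in the labels ties samples to separate embryos or to a batch, so the spread may in part be technical.

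Names came from the platform annotation: 34958 probe sets had 1 gene symbol and were used, 932 had several and 9211 are not named here. Entrez IDs of 34754 were found in the RefSeq table of GRCm38.p6, and no symbol changed. Of a gene's probe sets, that with the highest mean log2(signal + 1) was used. Amplification favours 3' ends, so distant probe sets can be dim. The reference list named 60 genes, 53 of them measured.

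With 1 group no test was made; lists are described by counts, to be read against the share of all genes above background. The 44 genes and all lists were chosen with earlier results of these data known. The rule for named genes permits all 44 and, of each other list, up to 4 genes with the highest mean above background and any not above it; not every permitted gene is named. The mean serves there only to choose names. Alternatives changed the normalization (quantile), the pseudocount (16, 64), the probe set (mean of all, or none ending in _x_at or _s_at), the percentile (90, 99), the arrays required (2), the centring, the filter and the replicates (each left out). Python 3.11.15, pandas 2.3.3 and numpy 2.4.6 were used. The number of arrays limits the precision.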

Additional observations from a re-analysis of the deposited data

How the results depend on the processing

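The count of 31 genes above background ranged from 26 to 33 over 11 alternatives, and from 31 to 32 when a replicate was left out. In every setting 22 of the 44 genes were above background and 11 in none. The other 11 changed in some setting: Ckm, Tcap, Tnni2, Ttn, Mybpc1, Myom2, Casq2, Chrna1, Chrnb1, Neb and Cav3. The embryonic count stayed at 5, the slow count lay between 5 and 6 and the fast count between 4 and 5. With the 99th percentile as background, Chrna1, Chrnb1, Neb, Casq2 and Cav3 were lost, while the share of all genes fell to 45.6%. Median deviations of the set moved by less than the median SD in every alternative, from 0.03 to 0.12 in replicate 3, -0.05 to 0.03 in replicate 8 and -0.18 to 0.00 in replicate 9, so signs near 0 are not firm. The mean of probe sets left 2 heart and 3 progenitor genes above background, while the share of all genes fell to 44.8%. With the 90th percentile, and with 2 arrays required, 5 tendon genes were, against 60.4% and 60.1% of all genes. The cause was not tested. Signal near background limits calls such as those of Neb (1.19 times background at its lowest) and Ckm (0.96 times). No paired analysis was possible because the study has 1 group.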
